A study of Homo sapiens with 18 samples.

Results

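The genes described here are 7 regulators of ferroptosis that are not selenoproteins: ACSL4, LPCAT3, AIFM2, DHODH, GCH1, TFRC and CISD1. They were chosen by Ensembl ID from the deposited count table, with no cut-off on their values but with earlier results of these data known. They are 7 of its 58676 gene IDs. All 7 passed the filter on low counts, which kept 17678 IDs over the 18 libraries and 16616 over the 9 inputs. The libraries come from RNA immunoprecipitation sequencing (RIP-seq), in which RNA bound to a tagged protein is recovered on antibody beads and set beside RNA of the lysate itself, called the input. HEK 293T cells, a human embryonic kidney line, were transiently transfected with a plasmid for Flag-SBP2 or for Flag alone, and lysates were taken at 48 h. The groups were Flag-SBP2, Flag-SBP2 with 100 nM sodium selenite added 4 h after transfection, and the Flag control, each with 3 RIP and 3 input libraries. All groups carried a transfected plasmid and met the same anti-Flag beads, no group had selenite without Flag-SBP2, and SBP2 was overexpressed rather than at its natural level. The growth protocol names HEK 293 where the other labels name HEK 293T. The cell line's markers and the transfected gene were not analysed here, since the table names genes by ID alone.

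Ferroptosis is a form of cell death driven by iron-dependent peroxidation of membrane phospholipids. The best known brake is GPX4, a selenoprotein that reduces phospholipid hydroperoxides, and its synthesis needs SBP2, a protein that recognises the SECIS element in the mRNA of a selenoprotein and helps insert selenocysteine. The genes here act beside GPX4: ACSL4 and LPCAT3 place polyunsaturated fatty acids into phospholipids, AIFM2, DHODH and GCH1 supply radical-trapping antioxidants, and TFRC and CISD1 handle iron. None of the 7 encodes a selenoprotein, so their mRNAs serve to show how non-selenoprotein transcripts of the same process behaved in the precipitation.

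Libraries held 20.0 to 29.9 M counts in RIP and 15.2 to 22.2 M in input (M, counts divided by 1e+06). Levels below are CPM, counts scaled to 1e+06 per library, after TMM scaling. Enrichment over control is the log2 RIP-to-input difference with Flag-SBP2 minus that in the control, which sets recovery with SBP2 against that of the beads without it. Tests are edgeR quasi-likelihood tests adjusted over all tested IDs, with a threshold of 0.05, and intervals are 95% intervals of the log2 difference, not adjusted for the number of tests. Nothing in the labels says whether the replicates came from separate transfections, so p-values measure the spread between these samples.

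The 7 genes split in the precipitation. Without selenite, DHODH, GCH1 and LPCAT3 were enriched over control by 2.38-fold, 1.56-fold and 1.52-fold, TFRC and ACSL4 were depleted to 0.539 and 0.565 of the control ratio, and AIFM2 and CISD1 did not pass. The call of LPCAT3 was the least stable of these: it was lost in 8 of the 12 fits that left out 1 library and in 5 of 10 other alternatives. That is 3 of 7 enriched and 2 of 7 depleted, beside 21.7% enriched and 18.1% depleted among all 17678 IDs. With selenite, DHODH and GCH1 were enriched and TFRC depleted, so 2 and 1 of 7, beside 19.3% and 14.4% of all IDs. These shares depend on the scaling: with library size alone 17.0% were enriched and 24.7% depleted without selenite, and 15.1% and 20.3% with it. The median enrichment of the 7 genes was 0.15 on the log2 scale without and 0.30 with selenite, beside 0.02 and 0.03 over all IDs. The 7 genes ranged from -0.89 to 1.25 without and from -0.72 to 1.00 with selenite. Of all IDs, the middle 90% lay between -1.0 and 1.55 without and between -0.89 and 1.37 with selenite, and all 7 genes lay inside these ranges.

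**Figure D1:**
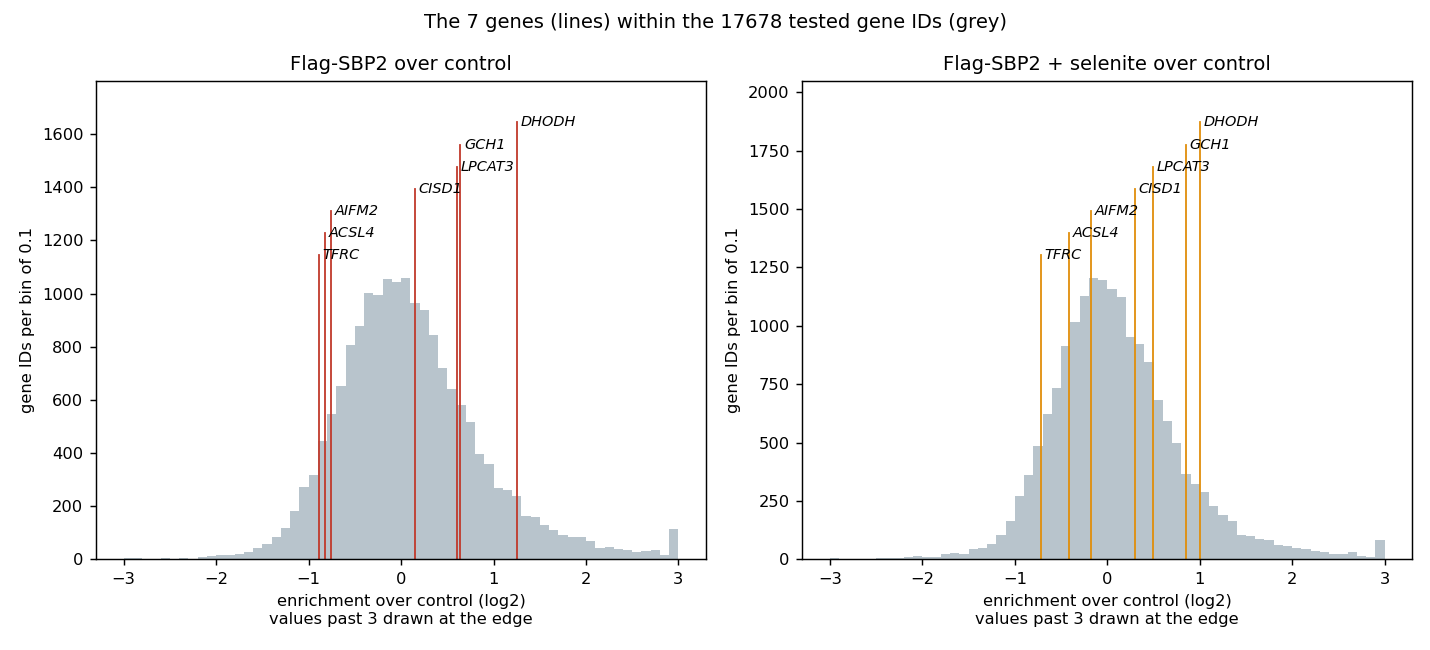
Histograms of the log2 enrichment over control (x axis, in bins of 0.1) of the 17678 tested gene IDs (y axis, IDs per bin), left for Flag-SBP2 and right for Flag-SBP2 with selenite; lines mark the 7 genes. DHODH lies farthest to the right in both panels, at 1.25 and 1.00, and TFRC farthest to the left, at -0.89 and -0.72.

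DHODH, the mitochondrial enzyme of pyrimidine synthesis that reduces coenzyme Q in the inner membrane, showed the largest enrichment of the 7. The gene (ENSG00000102967) spans chromosome 16, 72008744 to 72027659, in GRCh38. Its RIP level was 35.2, 40.7 and 41.2 CPM with Flag-SBP2 and 32.8, 37.0 and 39.1 CPM with selenite, against 20.5, 20.5 and 20.9 CPM in control RIP. All 6 SBP2 RIP libraries lay above all 3 control RIP libraries, and the control values were almost equal to each other. How many of all IDs had RIP levels separated in this way was not counted, here or for the genes below. Its input level was 20.3, 17.7 and 20.0 CPM with Flag-SBP2 and 20.2, 20.1 and 23.6 CPM with selenite, against 21.9, 23.4 and 27.4 CPM in control input. DHODH RNA was therefore recovered above its own input with SBP2, at log2 1.01 without and 0.77 with selenite (edgeR adjusted p = 8.39e-09 and 7.72e-07). In control RIP it lay at -0.24 against input, just short of the threshold (edgeR adjusted p = 0.0509, and 0.0492 with the lysate as a block). Without control input replicate 1 it was -0.30 and passed (edgeR adjusted p = 0.023). The enrichment over control was 1.25 without selenite (SE 0.15, edgeR adjusted p = 2.81e-07), above 92.0% of all tested IDs. With selenite it was 1.00 (SE 0.15, edgeR adjusted p = 9.68e-06). Set against control RIP without the inputs, DHODH was still higher, by 0.91 and 0.80 on the log2 scale (edgeR adjusted p = 3.24e-09 and 4.31e-08). That comparison called many IDs, 31.6% higher and 30.6% lower without selenite and 29.5% higher and 28.1% lower with it.

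Among 13333 other IDs whose mean log2 CPM was at least 1, ENSG00000168268 and ENSG00000115649 had the profiles most like that of DHODH. Their log2 CPM correlated with that of DHODH over the 18 libraries at Pearson r = 0.986 and 0.98, which describes points that share treatment, RIP or input status and library depth. Their own enrichments over control were 0.93 and 1.43 without selenite. As both IDs were picked for likeness to DHODH over the same libraries, an enrichment near its own follows from that choice.

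GCH1, the first and rate-limiting enzyme of tetrahydrobiopterin synthesis, was also enriched with SBP2. The gene (ENSG00000131979) spans chromosome 14, 54842017 to 54902826, and a pseudogene, FDPSP3, lies within it. Its RIP level was 41.1, 41.9 and 38.6 CPM with Flag-SBP2 and 40.0, 39.1 and 43.9 CPM with selenite, against 25.3, 27.5 and 23.6 CPM in control RIP. The SBP2 RIP values sat close together and did not overlap with the control RIP values. Its input level was 29.8, 29.2 and 25.6 CPM with Flag-SBP2 and 27.4, 22.5 and 23.9 CPM with selenite, against 34.9, 25.6 and 22.6 CPM in control input, and the 3 input groups overlapped. GCH1 was higher in RIP than in input by log2 0.52 without and 0.74 with selenite (edgeR adjusted p = 0.000567 and 1.13e-05), while control RIP lay at -0.12 (edgeR adjusted p = 0.402). The enrichment over control was 0.64 without selenite (SE 0.172, edgeR adjusted p = 0.00423) and 0.85 with selenite (SE 0.173, edgeR adjusted p = 0.000378). Without inputs the RIP differences were 0.66 and 0.67 (edgeR adjusted p = 2.28e-07 and 2.46e-07), where 31.6% and 29.5% of all IDs were called higher.

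AIFM2, also known as FSP1, reduces coenzyme Q at the plasma membrane and on lipid droplets. It was the least covered of the 7. The gene (ENSG00000042286) spans chromosome 10, 70112271 to 70132825, and its edge with the lower coordinate shares a few bases with MACROH2A2. It had 15, 29 and 31 counts in RIP with Flag-SBP2 and 29, 28 and 28 with selenite, against 23, 21 and 37 in control RIP. Inputs gave 20, 16 and 23 counts with Flag-SBP2 and 17, 18 and 16 with selenite, against 9, 7 and 17 in control. These are levels of 0.605 to 1.39 CPM in SBP2 RIP libraries and 0.774 to 1.12 CPM in control RIP, which overlap. The enrichment over control was -0.76 without selenite (interval -1.67 to 0.16, edgeR adjusted p = 0.188) and -0.18 with selenite (interval -1.10 to 0.74, edgeR adjusted p = 0.8). RIP against RIP turned the sign, at 0.04 without and 0.40 with selenite (edgeR adjusted p = 0.908 and 0.242). With selenite, leaving out 1 library gave -0.51 to 0.09. With so few counts, a value of -0.76 could not be told from 0, so a depletion of the size seen for TFRC was not detectable for AIFM2.

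**Figure D2:**
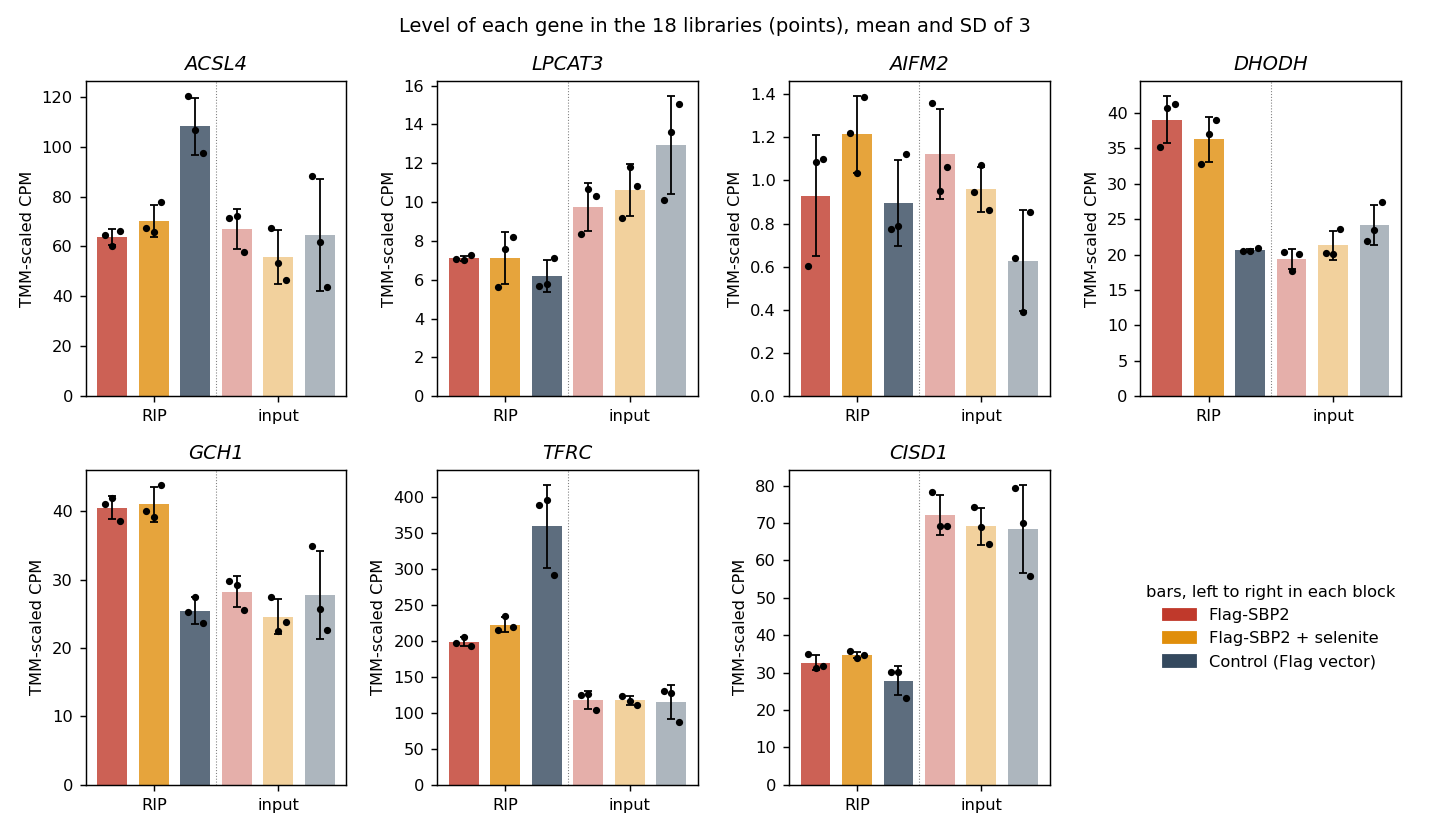
TMM-scaled CPM (y axes, each from 0) of the 7 genes in the 6 groups, RIP left of input; bars are means, whiskers the SD and points the 3 libraries of a group. DHODH and GCH1 are higher in both SBP2 RIP groups than in control RIP, and TFRC and ACSL4 are lower. No input difference passed the main test, which did not pair inputs by replicate number.

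TFRC, the transferrin receptor that brings iron into the cell, behaved the other way. The gene (ENSG00000072274) spans chromosome 3, 196049284 to 196082090. Its RIP level was 198, 206 and 194 CPM with Flag-SBP2 and 215, 235 and 220 CPM with selenite, against 389, 397 and 293 CPM in control RIP. Every SBP2 RIP library lay below every control RIP library, and the lowest control value came from replicate 3. Its input level was 125, 127 and 104 CPM with Flag-SBP2 and 124, 117 and 112 CPM with selenite, against 130, 128 and 87.5 CPM in control input, with replicate 3 again lowest. TFRC was above input in all 3 treatments, by log2 0.75 with Flag-SBP2, 0.93 with selenite and 1.64 in the control (edgeR adjusted p = 8.89e-06, 4.15e-07 and 1.29e-11). The control value, 3.12-fold, exceeded that of 96.8% of all IDs. The enrichment over control was -0.89 without selenite (SE 0.173, edgeR adjusted p = 0.000181) and -0.72 with selenite (SE 0.172, edgeR adjusted p = 0.00208). RIP against RIP gave -0.86 and -0.70 (edgeR adjusted p = 6.91e-09 and 2.35e-07), where 30.6% and 28.1% of all IDs were called lower.

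ACSL4, which activates arachidonic and adrenic acid for entry into phospholipids, shared this pattern in part. The gene (ENSG00000068366) spans chromosome X, 109641335 to 109733257, and a long noncoding RNA, LOC105373311, overlaps the edge with the higher coordinate. Its RIP level was 64.7, 60.0 and 66.4 CPM with Flag-SBP2 and 67.4, 66.0 and 77.7 CPM with selenite, against 120, 107 and 97.3 CPM in control RIP. The RIP groups with SBP2 lay wholly below the control. Its input level was 71.4, 72.1 and 57.7 CPM with Flag-SBP2 and 67.5, 53.2 and 46.4 CPM with selenite, against 88.2, 61.6 and 43.7 CPM in control input, so the control inputs were widely spread and the 3 input groups overlapped. In the control ACSL4 was above input by log2 0.75 (edgeR adjusted p = 0.000227). With Flag-SBP2 it lay at -0.07 (edgeR adjusted p = 0.723), and with selenite at 0.34 (edgeR adjusted p = 0.0785, 0.0266 with the lysate as a block, and 0.0166 at 0.50 without replicate 1 of the selenite input). The enrichment over control was -0.82 without selenite (SE 0.23, edgeR adjusted p = 0.00579). With selenite it was -0.41 (SE 0.231, edgeR adjusted p = 0.179), and leaving out 1 library moved it both ways. It was -0.70 without replicate 1 of the control input (edgeR adjusted p = 0.00411), but -0.20 without replicate 3 of the control input and -0.25 without replicate 1 of the selenite input (edgeR adjusted p = 0.469 and 0.443). RIP against RIP gave -0.64 (edgeR adjusted p = 4.28e-07), in a comparison that called 28.1% of all IDs lower. Scaling by library size alone gave -0.55 (edgeR adjusted p = 0.0476), and no low-count filter gave -0.58 (edgeR adjusted p = 0.000618).

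LPCAT3, the acyltransferase that places polyunsaturated acyl chains into lysophospholipids, was below input in every treatment. The gene (ENSG00000111684) spans chromosome 12, 6976185 to 7018476, where the RefSeq span of EMG1 overlaps it, and how reads in the overlap were counted is not given in the sources used here. Its RIP level was 7.06, 6.99 and 7.26 CPM with Flag-SBP2 and 5.63, 7.56 and 8.18 CPM with selenite, against 5.69, 5.79 and 7.14 CPM in control RIP. Its input level was 8.34, 10.7 and 10.3 CPM with Flag-SBP2 and 9.18, 11.8 and 10.8 CPM with selenite, against 10.1, 13.6 and 15.1 CPM in control input. In RIP the SBP2 values overlapped with those of the control, with and without selenite. RIP against input gave log2 -0.46 with Flag-SBP2, -0.58 with selenite and -1.06 in the control (edgeR adjusted p = 0.0138, 0.00292 and 1.34e-06). The first of these did not pass without Flag-SBP2 input replicate 2 or 3 (-0.40 and -0.42, edgeR adjusted p = 0.063 and 0.052). The enrichment over control was 0.60 without selenite (SE 0.222, edgeR adjusted p = 0.0335), and it passed in 4 of the 12 fits that left out 1 library. It did not pass without any 1 Flag-SBP2 RIP library, without replicate 1 of the Flag-SBP2 input, replicate 1 or 2 of control RIP, or replicate 2 or 3 of the control input (0.47 to 0.61, edgeR adjusted p from 0.0515 to 0.104). With selenite it was 0.49 (SE 0.223, edgeR adjusted p = 0.0962, and 0.0424 with the lysate as a block), and 0.63 without control input replicate 1 or without selenite RIP replicate 1 (edgeR adjusted p = 0.0229 and 0.0329). Comparing the RIP libraries directly gave 0.18 without selenite (edgeR adjusted p = 0.272). Inputs averaged 9.76 ± 1.24 CPM with Flag-SBP2, against 12.9 ± 2.53 CPM in the control (SD, n = 3 each).

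CISD1, or mitoNEET, is an iron-sulfur protein of the outer mitochondrial membrane. The gene (ENSG00000122873) spans chromosome 10, 58269162 to 58289586, and the reference lists 1 pseudogene, CISD1P1, whose reads could have been shared with it. Its RIP level was 35.0, 31.3 and 31.8 CPM with Flag-SBP2 and 35.7, 34.0 and 34.6 CPM with selenite, against 30.1, 30.1 and 23.4 CPM in control RIP. All 6 SBP2 values lay above the 3 control RIP values, by little in the closest case. Its input level was 78.3, 69.1 and 69.1 CPM with Flag-SBP2 and 74.2, 68.9 and 64.4 CPM with selenite, against 79.3, 70.0 and 55.9 CPM in control input. CISD1 was below input in all 3 treatments, at log2 -1.14 with Flag-SBP2, -0.99 with selenite and -1.30 in the control (edgeR adjusted p = 3.27e-09, 3.86e-08 and 2.29e-10). Its enrichment over control did not pass, at 0.15 without selenite (interval -0.18 to 0.48, edgeR adjusted p = 0.483) and 0.30 with selenite (interval -0.03 to 0.63, edgeR adjusted p = 0.155). With selenite it was 0.43 without control input replicate 3 (edgeR adjusted p = 0.0239), but 0.16 without control RIP replicate 3 (edgeR adjusted p = 0.501). RIP against RIP without inputs did pass, at 0.22 and 0.31 (edgeR adjusted p = 0.0426 and 0.00745). Those comparisons called 31.6% and 29.5% of all IDs higher.

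**Figure D3:**
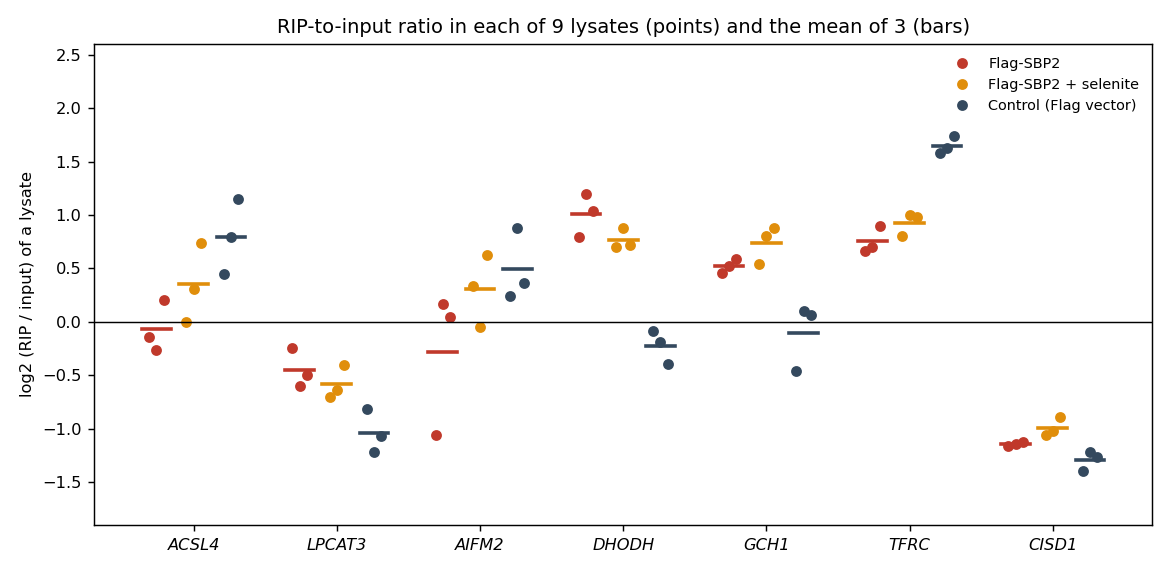
Log2 RIP-to-input ratio (y axis) of the 7 genes in each of the 9 lysates (points), with the mean of the 3 lysates of a treatment (bars). DHODH and GCH1 lie above 0 in all 6 SBP2 lysates, CISD1 and LPCAT3 lie below 0 in all 9, and TFRC lies above 0 in all 9 and highest in the control.

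The ratios of single lysates show how the groups were placed against each other. DHODH had log2 ratios of 0.79, 1.20 and 1.04 with Flag-SBP2 and 0.70, 0.88 and 0.72 with selenite, against -0.09, -0.19 and -0.39 in the control. TFRC had 0.66, 0.70 and 0.90 with Flag-SBP2 and 0.80, 1.00 and 0.98 with selenite, against 1.58, 1.63 and 1.74 in the control. For both genes the SBP2 lysates and the control lysates were separated, with DHODH higher and TFRC lower in the SBP2 lysates. For AIFM2 the Flag-SBP2 ratios were -1.06, 0.17 and 0.05, so replicate 1 alone set its low mean of -0.28. Without selenite the 3 Flag-SBP2 ratios did not overlap with the 3 control ratios for any of the 7 genes, 4 being higher and 3 lower, beside 27.3% of all IDs higher and 23.8% lower. With selenite they did not overlap for 5 of 7, 4 higher and 1 lower, beside 24.4% and 18.9% of all IDs.

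Read against input alone, the 7 genes gave the same 3 higher and 2 lower calls in both SBP2 treatments: DHODH, GCH1 and TFRC were higher and LPCAT3 and CISD1 lower. Among all IDs, 30.3% were higher and 31.7% lower with Flag-SBP2, and 30.7% and 31.6% with selenite. In the control, TFRC and ACSL4 were higher and LPCAT3 and CISD1 lower, 2 of 7 each, beside 31.5% and 39.8% of all IDs. Median ratios of the 7 genes were -0.07 with Flag-SBP2, 0.34 with selenite and -0.12 in the control, beside -0.02, 0.00 and -0.13 over all IDs. DHODH and GCH1 were above input in both SBP2 treatments but not in the control, while TFRC was above input in all 3.

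**Figure D4:**
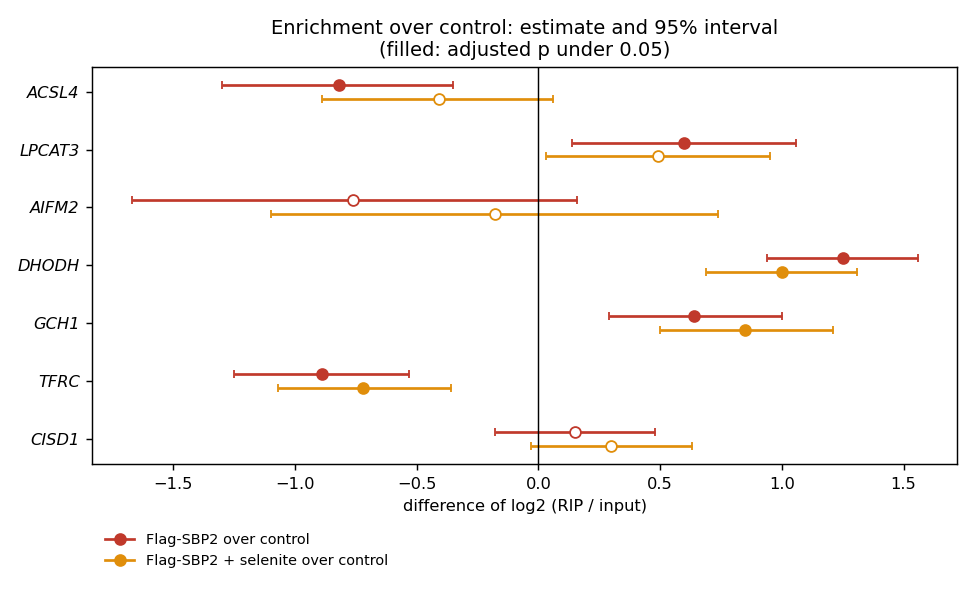
Enrichment over control of each gene (x axis, difference of log2 RIP-to-input ratios) with its 95% interval, for Flag-SBP2 (upper point of each pair) and Flag-SBP2 with selenite (lower point); filled points have an edgeR adjusted p under 0.05. Both enrichments use the same control lysates. DHODH and GCH1 lie right of 0 and TFRC left of 0 in both treatments.

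For recovery with SBP2, none of the 7 genes passed the test of the selenite effect. This effect, the RIP-to-input difference with selenite minus that without it, was -0.25 for DHODH (interval -0.55 to 0.06) and 0.21 for GCH1 (interval -0.14 to 0.57). It was 0.18 for TFRC (interval -0.18 to 0.53), 0.15 for CISD1 (interval -0.18 to 0.48) and -0.11 for LPCAT3 (interval -0.58 to 0.35). ACSL4 and AIFM2 had the largest values, 0.41 (interval -0.07 to 0.88) and 0.58 (interval -0.29 to 1.45). The edgeR adjusted p-values were 0.989 or 0.995. Their unadjusted p-values in edgeR ran from 0.0904 to 0.62, so 0 of 7 were under 0.05, beside 800 of 17678 IDs. After adjustment 0 of 17678 IDs passed (0% of all). DESeq2 and limma voom also called 0 of 17678. With no low-count filter 1 of 35033 IDs passed, and RIP against RIP called 104 of 17139 (0.607%), none of them among the 7 genes. Because ACSL4 passed without selenite and not with it, while its selenite effect did not pass, the treatments are not shown to differ for this gene. The intervals reached 0.48 or more from 0 for each of the 7 genes, so with 3 lysates a group each interval still held an effect of selenite of that size in 1 direction.

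The inputs gave the level of each RNA in the lysate, where a change in some of the cells and a smaller change in all cells cannot be told apart. In the main fit, which did not pair inputs by replicate number, none of the 7 genes passed in any of the 3 input comparisons. Among all IDs, 0.879% passed for Flag-SBP2 against control, 0.554% for Flag-SBP2 with selenite against control and 0.00602% for selenite within Flag-SBP2. For Flag-SBP2 against control inputs the differences ran from -0.40 for LPCAT3 to 0.82 for AIFM2. The unadjusted edgeR p was under 0.05 for LPCAT3, AIFM2 and DHODH (0.0282, 0.0321 and 0.0207), with adjusted p-values of 0.269, 0.285 and 0.241. Among all IDs in this comparison, 2500 of 16616 had an unadjusted edgeR p under 0.05. DESeq2 and limma voom also called 0 of the 7 in the 3 input comparisons. Of all IDs, in the same order of comparisons, DESeq2 called 1.99%, 1.24% and 0.0181%. Limma voom called 0.861%, 0.59% and 0.00602%. Blocked on replicate number, LPCAT3 and DHODH passed as lower with Flag-SBP2, at log2 -0.40 and -0.32 (edgeR adjusted p = 0.0174 and 0.0202). The same block called 9.03% of all IDs lower, against 0.518% without it. DHODH inputs were 19.7, 17.2 and 19.4 CPM with Flag-SBP2 against 21.1, 22.7 and 26.4 CPM in control when scaled over the inputs alone. For DHODH, RIP against RIP gave 0.91, beside the enrichment of 1.25 that takes these inputs into account.

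TFRC, the mRNA that cells stabilise when iron is scarce, averaged 115 ± 12.5 CPM with Flag-SBP2 and 114 ± 5.35 CPM with selenite, against 112 ± 23.4 CPM in control input (SD, n = 3 each, scaled over the inputs alone). Its differences from control were 0.04 (interval -0.25 to 0.33) and 0.03 (interval -0.26 to 0.32) on the log2 scale. Those of CISD1 were 0.08 (interval -0.17 to 0.34) and 0.02 (interval -0.24 to 0.28). GCH1 lay at 0.03 (interval -0.28 to 0.35) with Flag-SBP2 and at -0.16 (interval -0.48 to 0.15) with selenite. ACSL4 averaged 65.1 ± 7.9 CPM with Flag-SBP2 and 54.0 ± 10.2 CPM with selenite, against 62.4 ± 21.6 CPM in control input (SD, n = 3 each), where its 3 control values were 85.1, 59.7 and 42.3 CPM. AIFM2 averaged 1.09 ± 0.2 CPM with Flag-SBP2 and 0.93 ± 0.102 CPM with selenite, against 0.607 ± 0.225 CPM in control (SD, n = 3 each). The lowest AIFM2 input with SBP2 was 0.838 CPM and the highest control input 0.825 CPM. The share of all IDs with inputs separated in this way was not counted. With 7 to 23 counts per input, the difference between Flag-SBP2 and control had an interval of 0.08 to 1.55 and an edgeR adjusted p of 0.285.

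Selenite within Flag-SBP2 inputs gave differences between -0.27 for ACSL4 (interval -0.70 to 0.16) and 0.14 for DHODH (interval -0.13 to 0.40), all with an edgeR adjusted p of 1. The smallest unadjusted p of the 7 in edgeR was 0.2. TFRC lay at -0.01 (interval -0.30 to 0.28) and LPCAT3 at 0.11 (interval -0.24 to 0.47).

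**Figure D5:**
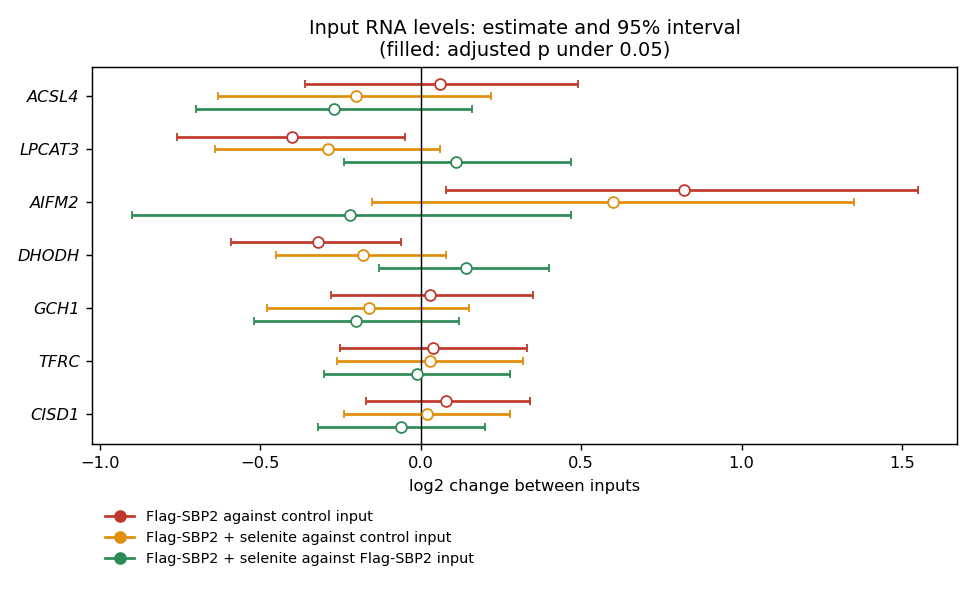
Log2 difference of the input level of each gene (x axis) with its 95% interval, from top to bottom in each set of 3 points for Flag-SBP2 against control, Flag-SBP2 with selenite against control, and Flag-SBP2 with selenite against Flag-SBP2. All points are open, meaning an edgeR adjusted p of 0.05 or more in the fit without a replicate block. The intervals of AIFM2 are the widest.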

How the data were processed

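The authors deposited whole-number counts per Ensembl gene ID for 18 libraries. Trim Galore 0.6.6, STAR 2.7.6a, featureCounts 2.0.1 and GRCh38 (hg38) are named in the submitters' processing notes. The gene annotation, strand setting and handling of multiply matching reads were not given in the sources used here, so reads of overlapping genes or pseudogenes may have been shared. The symbols of the 7 genes were paired with their IDs beforehand. The reference gene table (GRCh38.p14) held 0 Ensembl IDs among its 59792 genes, so other pathway genes and cell line markers were not analysed here. Gene positions came from that table by symbol.

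Counts were filtered with filterByExpr (minimum count 10, minimum total 15), scaled by TMM and tested with edgeR 4.0.16 in R 4.3.3 (two-sided quasi-likelihood test, Benjamini-Hochberg over all tested IDs). RIP comparisons used 6 group means over 18 libraries, and input comparisons used 3 group means over 9 inputs. Standard errors came from the test statistic, and intervals are SE times the t quantile of the fit's degrees of freedom. Ratios of single lysates are differences of log2 CPM with a prior count of 2. DESeq2 1.42.0, limma 3.58.1 (voom), other scalings and filters, fits over other libraries, blocks and the removal of each library were alternatives. The fits were also run on simulated counts in which few IDs were changed, which does not test the scaling where many IDs differ. The 7 genes were chosen with earlier results of these data known, and all 7 are named in every comparison.

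The chi-square per degree of freedom between replicates was 5.07 to 29.3, where sampling noise alone gives about 1, so each library was counted once. Same-numbered RIP and input libraries were taken as 1 lysate, because per the protocol the input is an aliquot of the lysate; their deviations from group means correlated at only -0.13 to 0.39. Same-numbered inputs of different treatments correlated at 0.17 to 0.65 over IDs whose mean log2 CPM was at least 1. Over all tested IDs the lowest of these correlations, between Flag-SBP2 and control, was 0.085, below the limit of 0.1. The main input tests did not pair inputs by replicate number, which entered only as a block in an alternative fit.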

Additional observations from a re-analysis of the deposited data

How the results depend on the processing

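The 63 results of single genes (7 genes in 9 comparisons) were set against 1089 alternative values, of which 1054 left the call as it was, 15 no longer passed, 20 newly passed and 0 reversed a call. All 15 losses concern LPCAT3. Its enrichment without selenite no longer passed with DESeq2 size factors (0.51, edgeR adjusted p = 0.0658), library size alone (0.45, edgeR adjusted p = 0.126), no low-count filter (0.46, edgeR adjusted p = 0.131), the DESeq2 test (adjusted p = 0.0621) or RIP against RIP, nor without any 1 of 8 libraries (0.47 to 0.61, edgeR adjusted p from 0.0515 to 0.104). The calls of DHODH, GCH1 and TFRC in both enrichments, and of ACSL4 in that without selenite, passed under every alternative run. DHODH ranged from 0.91 to 1.25 without and 0.80 to 1.00 with selenite, and TFRC from -1.04 to -0.86 and -0.88 to -0.70, leaving out the fits without 1 library.

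Counts of passing genes moved by over 1.5 times in 7 of 312 alternatives. Genes depleted over control with selenite numbered 2, not 1, with library size alone, with no low-count filter and in RIP against RIP, ACSL4 being added each time, where these settings called 20.3%, 10.5% and 28.1% of all IDs lower, against 14.4%. Leaving out 1 library gave 1 to 2 of them. Genes lower in Flag-SBP2 RIP than in input numbered 1 to 2 when 1 library was left out, LPCAT3 being lost without Flag-SBP2 input replicate 2 or 3. With the replicate block, 2 genes were lower in Flag-SBP2 than in control inputs, against 0 without it, while the share of all IDs called lower was 9.03%, against 0.518%. The lysate as a block added LPCAT3 in the enrichment with selenite, ACSL4 in RIP against input with selenite and DHODH in the control. With this block 20.5% of all IDs were called higher in the enrichment with selenite, against 19.3%. In RIP against input, 31.6% were called higher with selenite, against 30.7%, and 40% lower in the control, against 39.8%. Neither block changed another call. Among all IDs, enrichment with selenite was called higher for 15.7% and lower for 19.2% with DESeq2 size factors, against 19.3% and 14.4%. With library size alone the median over IDs was -0.13 (0.02 with TMM) in the enrichment without selenite, -0.10 (0.03) with selenite and 0.06 (-0.13) in control RIP. Relative to the first of these medians DHODH lay at 1.23 and TFRC at -0.91. The low counts of AIFM2, 7 to 37 per library, limit what can be seen of it.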
